A study of Homo sapiens with 17 samples.

Results

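hAT DNA transposons were measured in IMR90 ER:RAS cells, a line of human lung fibroblasts that carries oncogenic RAS fused to an oestrogen receptor domain, introduced with the pLNC retroviral vector. The hAT loci were taken as every repeat locus of the deposited tables whose class and family name began with DNA/hAT. They made up 406446 of 4748242 repeat loci, or 8.56%, and belonged to 158 of 1261 repeat subfamilies. In this line 4-hydroxytamoxifen (4OHT) turns RAS on and the cells enter oncogene-induced senescence, whereas DMSO is the solvent control. All cells received an siRNA by reverse transfection 1 day before 4OHT or DMSO, and RNA was taken 7 days after. The groups were DMSO with a non-targeting siRNA (DMSO siNT, n = 5), 4OHT with the non-targeting siRNA (4OHT siNT, n = 6) and 4OHT with an siRNA against SMARCA4 (4OHT siSMARCA4, n = 6). Each group joins libraries whose labels carry the siRNA number 2 or 4, with 3 of each in both 4OHT groups and 3 and 2 in DMSO siNT. DMSO with siSMARCA4 was not analysed here, so nothing below bears on the knockdown outside senescence. Every group carries the ER:RAS construct, and all libraries come from this 1 line. RNA was selected for poly(A) tails and sequenced in pairs with a strand-specific kit.

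hAT elements, named after the hobo, Ac and Tam3 elements of fly, maize and snapdragon, move by cut and paste. Their transposase binds short inverted repeats at the ends of the element, excises it, and inserts it elsewhere, where 8 bases of the target are duplicated on either side. No human copy is known to move today. Most are old fragments, and the many MER subfamilies are short derivatives without a transposase gene that were mobilised by longer Charlie, Tip100 or Blackjack elements. A few hAT transposases were kept as host genes such as the ZBED family. In poly(A) RNA, reads from such fragments come mostly from transcripts that run through them.

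The ends of the loci were searched for CAGNG at the start and its reverse complement CNCTG at the end. This motif stands at many but not all hAT ends, and both forms were read on the plus strand of GRCh38. The motif stood at the start of 42253 loci (10.4%) and its reverse complement at the end of 42244 loci (10.4%). At offsets of 1 or 2 bases to either side the share was 0.276% to 0.812%. Of 175272 Tc1/mariner loci, the other large group of human DNA transposons, 0.782% carried the motif at the start and 0.794% at the end. The motif was present at both ends in 6740 loci (1.66%), and 532 of these (7.89%) had identical 8-base flanks. MER1A with 146 of 479 such loci and MER1B with 266 of 916 supplied most of these, and in hAT-Tip100 the share was 1.54%. Among the 328689 hAT loci with the motif at neither end, identical flanks occurred in 375 (0.114%). They did so in 37 of 20139 such hAT-Blackjack loci (0.184%) and in 97 of 2050 such MER30 loci (4.73%). Absence of the motif was therefore not taken as a sign of an incomplete copy. The share of loci with the start motif was 11.7% in the hAT-Charlie family and 9.16% in hAT-Tip100, but 0.158% in hAT-Blackjack, as the plot of terminal motifs by family shows.

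**Figure D1:**
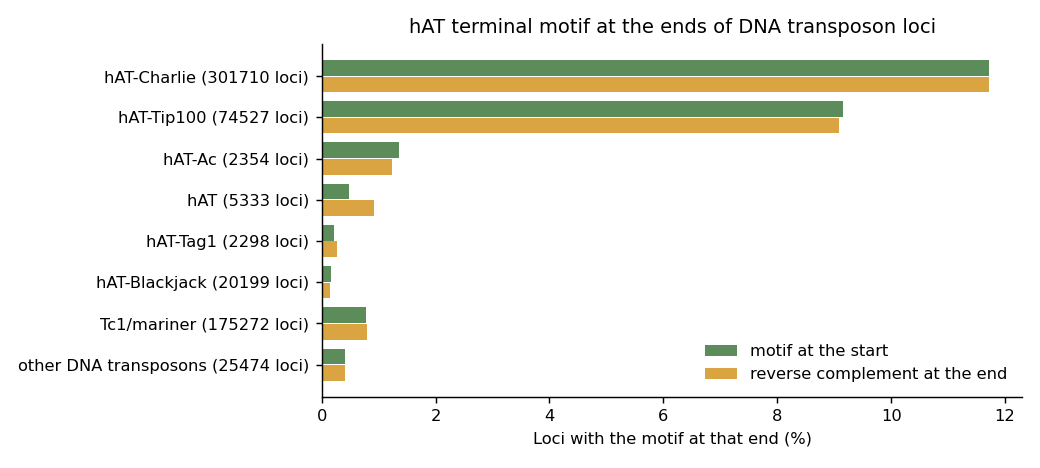
Share of loci (%, x axis) with the hAT terminal motif exactly at the start (green) or its reverse complement exactly at the end (yellow), for each hAT family and for other DNA transposons (y axis, with the number of loci). hAT-Charlie and hAT-Tip100 loci carry it at 9.09% to 11.7% of ends, and Tc1/mariner loci at under 0.8%.

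The most frequent base at each of the first 16 positions of loci that begin with the motif is shown for subfamilies that recur in the results, so that their ends can be compared. Capitals mark the motif CAGNG, which was required.
MER5A, 5422 loci: CAGTGgttctcaaact
MER20, 4394 loci: CAGTGgttctcaacct
Charlie1a, 231 loci: CAGTGgttctcaaagt
Charlie2b, 95 loci: CAGTGgtcttcaaact
Charlie8, 102 loci: CAGAGgttgcaaactg
Zaphod2, 27 loci: CAGGGctgccatgtac
Position by position after the motif, the Charlie1a, Charlie2b and MER20 ends shared most of their letters with MER5A. Charlie8 shared fewer, and Zaphod2, a Tip100 subfamily, the fewest of these. The most frequent base at these positions held 33.3% to 66.7% of the 27 Zaphod2 loci and 38.3% to 87.3% of the MER5A loci. Some letters therefore stand for a minority of loci.

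The 12 sequences below are among the loci with the largest changes described further on, 3 for each direction and comparison, and were at most 300 bases long and outside annotated UTRs. They are given on the plus strand of GRCh38, with a terminal motif in capitals where the search found one.
MER102b at chr1:222054713-222054947, LINC01705 intron, higher with 4OHT: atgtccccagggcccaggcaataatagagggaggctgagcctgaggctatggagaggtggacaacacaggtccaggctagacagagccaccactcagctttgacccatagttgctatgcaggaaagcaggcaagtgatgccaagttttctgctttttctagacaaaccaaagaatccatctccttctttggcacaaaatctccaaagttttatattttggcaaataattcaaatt
MER94 at chr1:222049238-222049320, LINC01705 intron, higher with 4OHT: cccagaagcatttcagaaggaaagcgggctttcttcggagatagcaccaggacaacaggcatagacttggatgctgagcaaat
Charlie1b at chr21:46051285-46051417, outside genes next to ENSG00000228235, higher with 4OHT: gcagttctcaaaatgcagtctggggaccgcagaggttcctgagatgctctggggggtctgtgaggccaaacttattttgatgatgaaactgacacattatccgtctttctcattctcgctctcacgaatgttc
MER102c at chr5:111726946-111727212, NREP intron, lower with 4OHT: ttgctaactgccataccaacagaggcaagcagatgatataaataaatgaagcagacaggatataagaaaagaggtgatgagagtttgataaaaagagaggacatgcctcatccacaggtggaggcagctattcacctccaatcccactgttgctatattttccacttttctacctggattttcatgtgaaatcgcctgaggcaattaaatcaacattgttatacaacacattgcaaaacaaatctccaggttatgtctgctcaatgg
MER102b at chr17:80829290-80829557, RPTOR intron, lower with 4OHT: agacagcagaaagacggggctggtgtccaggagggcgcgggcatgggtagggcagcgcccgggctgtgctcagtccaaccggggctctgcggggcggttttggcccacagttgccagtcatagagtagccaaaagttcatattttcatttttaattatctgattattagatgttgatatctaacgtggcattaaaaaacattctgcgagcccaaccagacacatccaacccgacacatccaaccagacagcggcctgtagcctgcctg
MER5B at chr4:121667250-121667378, outside genes next to ANXA5, lower with 4OHT: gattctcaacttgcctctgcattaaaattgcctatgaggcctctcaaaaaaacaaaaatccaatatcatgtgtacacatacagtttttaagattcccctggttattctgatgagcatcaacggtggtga
MER20 at chr3:194409749-194409828, ATP13A3 intron, higher with siSMARCA4: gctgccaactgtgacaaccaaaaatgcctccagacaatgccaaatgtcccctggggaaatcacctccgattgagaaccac
Charlie15a at chr9:104858162-104858391, ABCA1 intron, higher with siSMARCA4: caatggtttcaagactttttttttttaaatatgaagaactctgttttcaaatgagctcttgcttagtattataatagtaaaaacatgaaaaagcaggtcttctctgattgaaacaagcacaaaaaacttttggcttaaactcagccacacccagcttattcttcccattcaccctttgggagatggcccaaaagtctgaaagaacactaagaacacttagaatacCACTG
MER3 at chr17:2678911-2679081, PAFAH1B1 intron, higher with siSMARCA4: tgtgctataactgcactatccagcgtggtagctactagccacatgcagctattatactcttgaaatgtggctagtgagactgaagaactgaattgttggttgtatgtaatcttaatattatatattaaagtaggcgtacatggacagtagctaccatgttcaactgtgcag
MER63A at chr1:223756398-223756586, CAPN2 intron, lower with siSMARCA4: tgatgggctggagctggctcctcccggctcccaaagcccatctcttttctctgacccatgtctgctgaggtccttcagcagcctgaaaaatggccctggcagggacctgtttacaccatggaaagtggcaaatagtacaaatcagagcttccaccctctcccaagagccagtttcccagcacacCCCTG
MER20 at chr19:55493097-55493302, SSC5D intron, lower with siSMARCA4: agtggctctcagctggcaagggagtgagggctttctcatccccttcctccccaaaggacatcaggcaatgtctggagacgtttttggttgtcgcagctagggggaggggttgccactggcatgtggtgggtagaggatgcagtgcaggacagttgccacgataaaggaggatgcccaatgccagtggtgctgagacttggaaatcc
MER20 at chr9:124871735-124871913, ARPC5L intron, lower with siSMARCA4: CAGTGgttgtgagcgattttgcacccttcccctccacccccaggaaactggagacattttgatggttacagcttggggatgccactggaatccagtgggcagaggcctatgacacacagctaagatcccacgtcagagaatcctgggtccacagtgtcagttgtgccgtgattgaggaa
The motif stood at 1 end in 3 of these 12 loci and at both ends in 0 of them, and none had identical 8-base flanks. Of the 704 hAT loci with enough counts to be tested, 160 (22.7%) had the motif at 1 end or both, beside 19.1% of those not tested.

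Library totals ran from 39109479 to 68978119 counts and repeats took 1.35% to 1.93% of them. SMARCA4 (ENSG00000127616), the targeted gene and an ATPase of SWI/SNF chromatin remodellers, was at 198 ± 19.2 CPM (counts-per-million; SD, n = 5) in DMSO siNT, 268 ± 13.2 CPM (n = 6) in 4OHT siNT and 88.1 ± 22.8 CPM (n = 6) in 4OHT siSMARCA4. The log2 fold change with the siRNA was -1.61 (edgeR SE 0.13, adjusted p 5.14e-07). The fibroblast genes COL1A1, COL1A2, COL3A1, VIM, THY1 and PDGFRB were expressed in all groups, and all but VIM fell in both comparisons. With 4OHT the 5 fell by 0.69 to 1.68 on the log2 scale (edgeR adjusted p 0.00451 or lower), and with siSMARCA4 by 1.01 to 1.49 (edgeR adjusted p 0.00225 or lower). VIM was at -0.0045 and -0.061 (edgeR adjusted p 0.973 and 0.680). Of 5 markers of other cells, KRT18 was at 40.4 to 63.3 CPM in the group means and VWF at 1.11, 3.76 and 2.60 CPM in DMSO siNT, 4OHT siNT and 4OHT siSMARCA4. The epithelial marker EPCAM was at 0.213 to 0.870 CPM, the endothelial PECAM1 at 0.0145, 0.936 and 0.341 CPM, and the leukocyte marker PTPRC had too few counts to be tested (50 in all). The part of such cells, or of the fibroblast genes, in the results was not tested. Library labels also carry a tag ending in V or VM that is not explained. The VM tag was on 6 of 6 libraries in 4OHT siNT, 3 of 6 siSMARCA4 and 3 of 5 DMSO siNT libraries.

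A property of the libraries bears on loci in exons. For 916 exonic repeat loci outside hAT, the locus count as a percent of the count of the protein-coding gene around it had a median of 0.431, 0.342, 0.498, 0.120 and 0.0782 in the 5 DMSO siNT libraries. It was 0.0430 to 0.530 in the 6 4OHT siNT libraries and 0.185 to 0.521 in the 6 siSMARCA4 libraries. The 96 exonic hAT loci of highly expressed genes followed it, with medians from 0.0390 in 4OHT siNT 2-2VM to 0.680 in 4OHT siSMARCA4 4-3V. The groups overlapped in this measure, and libraries within DMSO siNT and within 4OHT siNT differed more than the group medians did. Libraries of DMSO siNT and 4OHT siNT also deviated over all genes along with this share, as the closing section gives. Its part in the exonic totals below and in genes was not tested. Subfamilies and loci were also fitted with this share as a covariate, an alternative chosen after seeing the data, and some of those values are given below.

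Counts fell on 67675 hAT loci, 16.7% of them, against 21.0% of all repeat loci, and 9622 had 10 or more counts over the 17 libraries. The 879712 hAT counts were unevenly spread. hAT-Charlie took 85.0% of them with 301710 loci, hAT-Tip100 9.16% with 74527 loci, and hAT-Blackjack 3.96% with 20199 loci. The families hAT, hAT-Tag1, hAT-Ac and hAT-hAT19 together held the rest. The single locus with most counts took 22.2%, the top 5 took 28.1%, and the top 100 took 39.3%. In 12 of the 144 tested subfamilies 1 locus held most of the counts, so that the level of such a subfamily is in large part the level of that locus.

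The locus with most counts is a Charlie2b interval of 2143 bp at chr5:14651481-14653623, annotated as an exon of the processed pseudogene EEF1A1P13, and it held 98.0% of the counts of Charlie2b. It matched transcripts of EEF1A1, a translation elongation factor gene on another chromosome, with 98.34% identity over 1747 bp. In the DMSO siNT libraries it was at 330, 277, 193, 295 and 396 CPM. The 4OHT siNT libraries ranged from 147 to 222 CPM with a median of 174, and the siSMARCA4 libraries from 152 to 214 CPM with a median of 194. Most DMSO libraries lay above both 4OHT groups, which lay on top of each other. The log2 fold change of 4OHT siNT against DMSO siNT was -0.72 (edgeR SE 0.15, adjusted p 0.00108) and that of siSMARCA4 against siNT was 0.07 (edgeR SE 0.14, adjusted p 0.830). With the exonic share as a covariate, the locus was at -0.78 with 4OHT (edgeR SE 0.12, adjusted p 3.73e-05). EEF1A1 itself fell by 0.49 on the log2 scale with 4OHT (edgeR SE 0.09, adjusted p 0.000212). The next locus, Charlie7 at chr14:66011764-66014194, is an exon of the pseudogene YBX1P1, matched YBX1 with 97.4% identity over 1512 bp and held 84.2% of the counts of Charlie7. In all, 23 of 704 tested loci (3.27%) matched a transcript of a gene elsewhere over at least 100 bp at 95% identity or more, and they held 27.0% of hAT counts. How reads were shared between such copies and their parent genes was not tested.

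The 3 groups were first compared on all hAT counts together. The DMSO siNT libraries were at 1004, 1169, 915, 871 and 899 CPM of the library total. 4OHT siNT ranged from 834 to 994 CPM with a median of 907, and siSMARCA4 from 878 to 1276 CPM with a median of 1014. The groups overlapped in each pair. The mean was 911 ± 63.5 CPM in 4OHT siNT and 1041 ± 131 CPM in siSMARCA4 (SD, n = 6 each), 1.14 times as high (exact permutation test, 2-sided, p 0.0346, adjusted over 3 pairs 0.104). Against the DMSO siNT mean of 972 ± 121 CPM (n = 5), neither 4OHT group passed the test (exact permutation, adjusted p 0.409 for each). Without the 5 loci with most counts the means were 638, 676 and 779 CPM in DMSO siNT, 4OHT siNT and siSMARCA4, so that 4OHT siNT lay above DMSO siNT instead of below it (exact permutation, unadjusted p 0.556), and siSMARCA4 was at 1.22 times the DMSO siNT mean in place of 1.07 (unadjusted p 0.104). hAT loci took 6.28%, 6.29% and 5.99% of repeat counts in DMSO siNT, 4OHT siNT and siSMARCA4, and no pair passed (exact permutation, adjusted p 0.555 to 0.968). Without siSMARCA4 4-3V, the difference of siSMARCA4 from 4OHT siNT was -0.51 percentage points (exact permutation, adjusted p 0.0390). All repeats together took 1.55%, 1.45% and 1.73% of counts, and Tc1/mariner elements were at 461, 431 and 534 CPM. In bulk RNA a change in cells of a given type and a change in RNA per cell cannot be told apart.

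By place, the comparison differed. In exons, DMSO siNT libraries were at 546, 494, 440, 416 and 482 CPM, all above the 4OHT siNT range of 290 to 415 CPM (median 362). The means were 476 ± 50.4 and 359 ± 49.95 CPM, a difference of -117 CPM (exact permutation, 2-sided, p 0.00433, adjusted over 9 tests 0.0195). Without the 23 loci that match transcripts of other genes, the difference was 6.56 CPM (exact permutation adjusted p 0.968). Outside genes the means were 83.3 ± 9.24, 83.1 ± 5.91 and 108 ± 11.3 CPM in DMSO siNT, 4OHT siNT and siSMARCA4. There, siSMARCA4 libraries (89.5 to 125 CPM, median 108) exceeded 4OHT siNT libraries (73.1 to 90.3 CPM, median 83.8) 1.30 times (exact permutation p 0.00433, adjusted 0.0195), with 1 siSMARCA4 library, 4-2VM, inside the range of the controls. Against DMSO siNT the ratio was also 1.30 (exact permutation adjusted p 0.0260, and 0.0535 to 0.0857 without any 1 of 8 libraries, which were DMSO siNT 2-1V, 2-2VM and 4-2VM and siSMARCA4 2-1VM, 2-3V, 2-3VM, 4-2V and 4-3V). In introns the means were 413 ± 96.8, 469 ± 31.7 and 534 ± 89.9 CPM, and no pair passed (exact permutation adjusted p 0.125 to 0.253). DMSO siNT 2-2V, at 580 CPM, decided part of this, since without it both 4OHT groups exceeded DMSO siNT by 98.3 and 163 CPM (exact permutation adjusted p 0.0214 and 0.0343). Without siSMARCA4 4-2VM, siSMARCA4 exceeded 4OHT siNT by 88.8 CPM in introns and by 162 CPM over all hAT loci (exact permutation adjusted p 0.0487 and 0.0130). The plot of hAT counts by library and place shows these values.

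**Figure D2:**
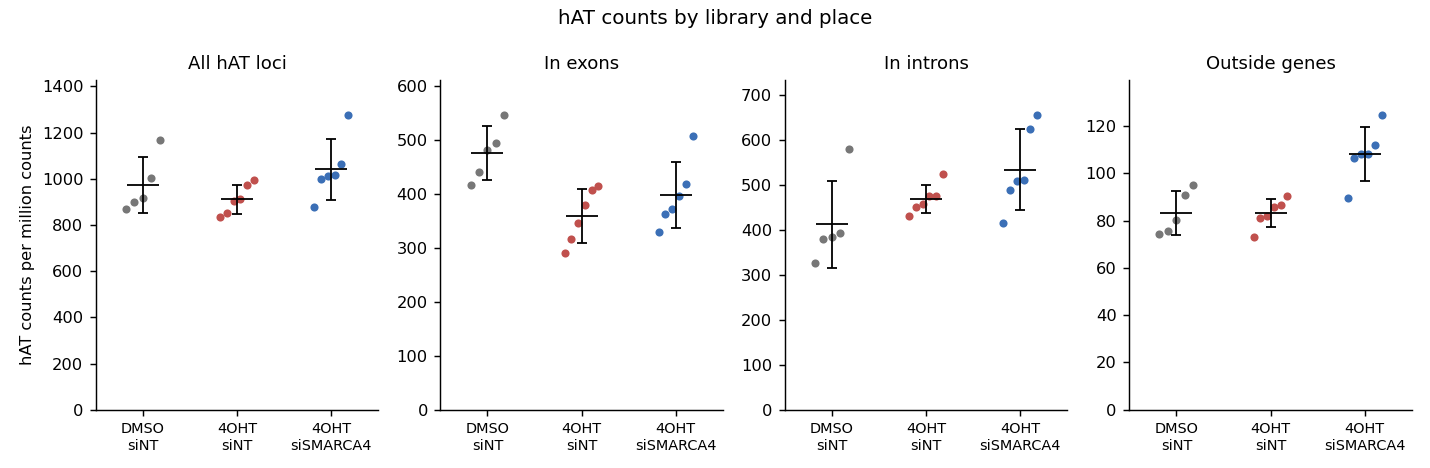
hAT CPM of the library total (y axes, from 0) in all loci, in exons, in introns and outside genes, for each library (points, sorted within a group) of DMSO siNT (grey, n = 5), 4OHT siNT (red, n = 6) and 4OHT siSMARCA4 (blue, n = 6). Black bars show the mean and SD. Exonic counts of all 5 DMSO siNT libraries lie above those of 4OHT siNT, and 5 of 6 siSMARCA4 libraries lie above all 4OHT siNT libraries outside genes.

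Counts on sparse repeats, those with at most 20 counts in all and over 50000 bp from a gene, were also higher in siSMARCA4 than in 4OHT siNT. They were at 75.1 ± 36.0 CPM in DMSO siNT, 55.1 ± 10.97 CPM in 4OHT siNT and 113 ± 48.1 CPM in siSMARCA4, and each siSMARCA4 library lay above each 4OHT siNT library. Because this level separated the 2 groups, a fit with it as a covariate cannot tell the groups and the level apart. In such a fit Zaphod2 was at 0.95 on the log2 scale (edgeR SE 0.27, adjusted p 0.190), Charlie8 at 0.49 (edgeR SE 0.14, adjusted p 0.190) and Charlie1a at 0.36 (edgeR SE 0.12, adjusted p 0.281), beside 0.91, 0.37 and 0.47 without it. Among the families, hAT-Blackjack was at 15.99 ± 3.56 CPM in DMSO siNT, 37.5 ± 18.7 CPM in 4OHT siNT and 57.6 ± 29.1 CPM in siSMARCA4. Its siSMARCA4 libraries (33.0 to 113 CPM) lay above all DMSO siNT libraries, at 3.6 times the mean. Much of this lay on a pair of MER53 loci in CXCL8, described below, whose means were 0.0573 and 0.0633 CPM in DMSO siNT and 19.8 and 19.2 CPM in siSMARCA4 on the TMM scale. However, no family passed in any pair after adjustment over 18 tests (exact permutation, lowest adjusted p 0.0935). hAT-Charlie was at 862, 769 and 862 CPM, hAT-Tip100 at 76.6, 89.1 and 100.1 CPM and hAT-Tag1 at 6.003, 5.32 and 7.57 CPM.

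The comparison of 4OHT siNT with DMSO siNT asked what changed with RAS-induced senescence. At the level of subfamilies, 19 of 144 rose and 10 fell (edgeR quasi-likelihood test, Benjamini-Hochberg adjusted p under 0.05 over all repeat subfamilies). Of all 1026 repeat subfamilies tested, 10.1% were called higher and 6.73% lower, so the hAT shares of 13.2% and 6.94% lay near those of repeats at large. The median log2 fold change was 0.11 over hAT subfamilies and 0.05 over all. In 8 of the 19 and 4 of the 10, libraries of the groups did not overlap. These were 5.56% and 2.78% of hAT subfamilies, beside 5.56% and 3.9% of all repeat subfamilies that were called without overlap. hAT-Tip100 subfamilies rose in 8 of 50 and fell in 0 of 50 (15 with an unadjusted edgeR p under 0.05 in either direction), and hAT-Charlie subfamilies rose in 8 and fell in 9 of 78.

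The largest rises were in MER97d, a Tip100 subfamily, and MER53, a Blackjack subfamily. MER97d was at 0.401, 0.736, 0.416, 0.194 and 0.252 CPM in DMSO siNT, and at 2.98 to 4.32 CPM (median 3.40) in 4OHT siNT. The log2 fold change was 3.11 (edgeR SE 0.30, adjusted p 4.75e-07). It came from 1 locus with 90.8% of the counts, and without that locus the value was -0.55 (edgeR adjusted p 0.547). MER53 was at 3.37, 4.18, 3.23, 3.47 and 3.00 CPM in DMSO siNT and at 5.89 to 49.2 CPM (median 23.6) in 4OHT siNT, a log2 fold change of 2.86 (edgeR SE 0.53, adjusted p 0.000669). All 4OHT siNT libraries lay above all DMSO siNT libraries for both subfamilies, but the spread of MER53 within 4OHT siNT was wide.

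The other rises of the named set were smaller. UCON26, of the Ac family, went from 0.121 ± 0.0339 to 0.521 ± 0.126 CPM (2.10 in log2 units by edgeR, SE 0.33, adjusted p 0.000156). Charlie29a went from 1.79 ± 0.388 to 4.97 ± 0.517 CPM (1.48, edgeR SE 0.16, adjusted p 1.42e-06). MER113A went from 5.05 ± 1.34 to 10.9 ± 2.37 CPM (1.11, edgeR SE 0.18, adjusted p 0.000151). In each, the locus with most counts held 42.0% to 47.7% of the counts. Without it, UCON26 was at 1.61 (edgeR adjusted p 0.0248), but Charlie29a at 0.33 (edgeR adjusted p 0.161) and MER113A at 0.24 (edgeR adjusted p 0.384), so that both calls ended. For Charlie29a that locus lay in an intron of GFPT2, an enzyme of hexosamine synthesis, and for MER113A in an intron of EPHB2, an ephrin receptor.

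Falls were led by Charlie30a, which went from 1.46 ± 0.0743 CPM (n = 5) to 0.655 ± 0.202 CPM (n = 6), a log2 fold change of -1.16 (edgeR SE 0.28, adjusted p 0.00586). An intron of CDC20B held 77.8% of its counts, and without that locus the value was -0.09 (edgeR adjusted p 0.930). Charlie2a fell by 1.06 on the log2 scale (edgeR SE 0.15, adjusted p 3.25e-05), MER5C by 0.88 (edgeR SE 0.18, adjusted p 0.00198) and Charlie8 by 0.59 (edgeR SE 0.11, adjusted p 0.000805). Of the Charlie8 counts, 33.6% lay on a coding exon of GTF2IRD2B, a host gene that carries a Charlie8 transposase domain. Without the locus with most counts in each, Charlie2a was at -0.66 (edgeR adjusted p 0.00382), whereas MER5C at -0.16 (edgeR adjusted p 0.759) and Charlie8 at -0.21 (edgeR adjusted p 0.378) no longer passed. Without the loci that match transcripts of other genes, the Charlie8 copies in GTF2IRD2B among them, the value was 0.04 (edgeR adjusted p 0.934). Of the large subfamilies, MER5A and MER5B were at 0.16 (edgeR SE 0.14, adjusted p 0.474) and 0.11 (edgeR SE 0.12, adjusted p 0.621), and MER20 rose by 0.51 on the log2 scale (edgeR SE 0.14, adjusted p 0.0184). The MER20 call ended without DMSO siNT 4-3VM (0.42, edgeR adjusted p 0.0542), without its locus with most counts (0.41, edgeR adjusted p 0.0836) and in siRNA number 2 libraries alone (0.19, edgeR adjusted p 0.495).

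**Figure D3:**
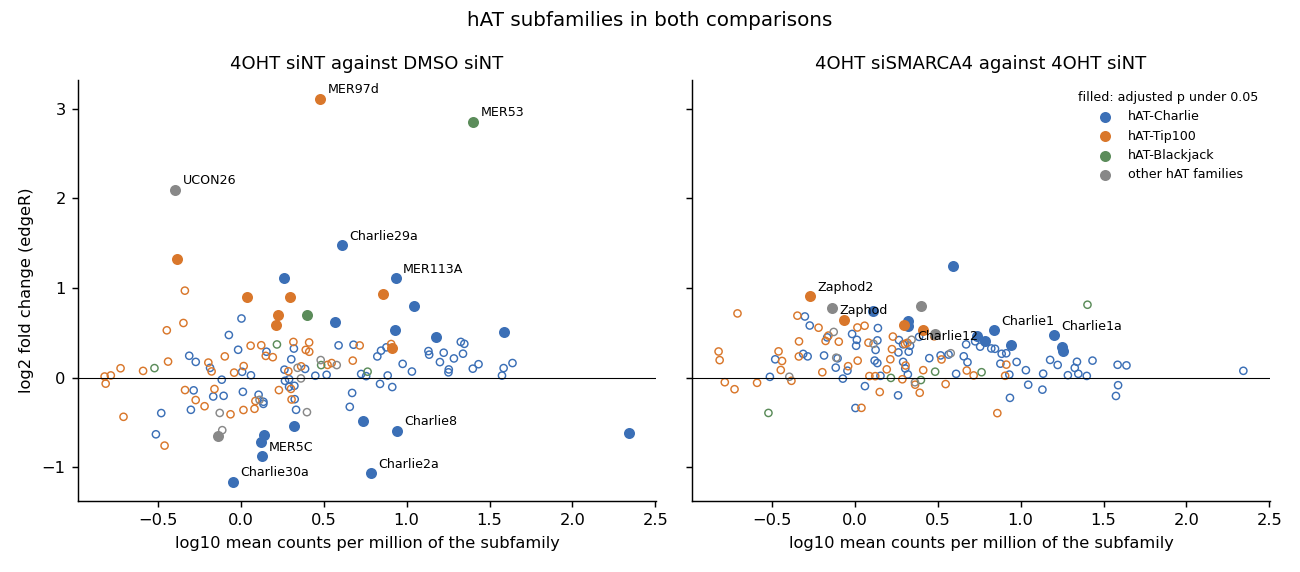
Log2 fold change from edgeR (y axis) against log10 of the mean CPM (x axis) for the 144 tested hAT subfamilies, in 4OHT siNT against DMSO siNT (left) and 4OHT siSMARCA4 against 4OHT siNT (right). Filled points have an adjusted p under 0.05 and colours give the family. The left panel has 19 calls above 0 and 10 below, and the right panel has 18 above and 0 below.

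Single loci gave the finer view. Of 704 hAT loci tested, 143 rose and 58 fell with 4OHT (edgeR quasi-likelihood test, adjusted over all repeat loci), or 20.3% and 8.24%. Of all 13026 repeat loci tested, 18.1% were called higher and 9.31% lower. A locus could pass the filter through its 4OHT libraries alone, which outnumber DMSO siNT, or through its DMSO siNT libraries alone. The part of this in the balance of rises and falls was not tested. Libraries did not overlap in 96 of the 143 and 38 of the 58, or 13.6% and 5.40% of hAT loci, beside 11.6% and 5.67% of all repeat loci. hAT-Tip100 loci rose in 26 and fell in 4 of 80, hAT-Charlie loci rose in 107 and fell in 52 of 586, and hAT-Blackjack loci rose in 6 and fell in 1 of 17. By place, 107 of 423 intronic loci rose and 29 fell, 15 of 199 exonic loci rose and 12 fell, and 21 of 82 loci outside genes rose and 17 fell. Those of the 143 higher loci that lay in genes lay in 93 genes.

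A cluster of 4 called loci lay in LINC01705, a long noncoding RNA gene on chromosome 1. The MER102b copy at chr1:222054713-222054947, whose sequence is printed above, had 0, 0, 0, 0 and 0.0178 CPM in the DMSO siNT libraries, 1 count in all. In 4OHT siNT it was at 0.952 to 1.57 CPM (median 1.16) and in siSMARCA4 at 0.586 to 1.69 CPM (median 0.842). DMSO siNT was thus at or near 0 while every 4OHT library had counts. The ratio of summed counts was 316, with an exact counting interval of 56.4 to 12532 that covers counting error only (fitted at 7.62 in log2 units by edgeR, SE 0.52, adjusted p 4.29e-09). The MER94 copy in the same gene at chr1:222049238-222049320 had 0 counts in DMSO siNT and 115 in 4OHT siNT, at least 32.8-fold higher with 3 counts over the DMSO group as the floor (edgeR adjusted p 0.000336). The MER97d locus that drove its subfamily, chr1:222053297-222054463, went from 0.0531 ± 0.0339 to 3.17 ± 0.515 CPM (5.83 in log2 units by edgeR, SE 0.34, adjusted p 5.76e-10). LINC01705 itself rose by 6.65 on the log2 scale (edgeR SE 0.25, adjusted p 1.99e-13).

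Most MER53 counts lay on a pair of loci in the 3' UTR of CXCL8, the gene of the chemokine interleukin 8, at chr4:73742563-73742684 and chr4:73742832-73742935. The first was at 0.112, 0.0826, 0.0359, 0.0207 and 0.0356 CPM in DMSO siNT and at 1.47 to 22.8 CPM (median 9.10) in 4OHT siNT. The log2 fold changes were 7.41 (edgeR SE 0.92, adjusted p 6.72e-06) and 7.34 (edgeR SE 0.98, adjusted p 1.55e-05), while CXCL8 rose by 8.55 (edgeR SE 0.28, adjusted p 4.83e-14). Both loci varied within 4OHT siNT as the exonic share described above did. The first locus was at 22.8, 15.7 and 14.0 CPM in the 3 libraries with a share of 0.4% to 0.530%, and at 1.47, 2.42 and 4.16 CPM in the 3 with 0.0430% to 0.118%. For siSMARCA4 against siNT, the main fit called neither CXCL8 locus, at 0.97 and 0.83 on the log2 scale (SE 0.51 and 0.56, edgeR adjusted p 0.274 and 0.405). With this share as a covariate, chosen after seeing the data, they were at 0.76 and 0.66 (SE 0.18 and 0.16, edgeR adjusted p 0.0104 and 0.0116). CXCL8 itself rose by 1.09 with siSMARCA4 (edgeR SE 0.18, adjusted p 0.000388).

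Other loci at or near 0 in DMSO siNT appeared with 4OHT. With so few counts in DMSO siNT, these loci and those in LINC01705 entered the test through their 4OHT counts. They were then picked as large rises, so their p-values are not separate support. The Charlie1b copy at chr21:46051285-46051417 lies 1179 bp from the noncoding RNA gene ENSG00000228235. It had 0.0186, 0.0206, 0.0179, 0 and 0 CPM in DMSO siNT and 0.865 to 1.91 CPM (median 1.30) in 4OHT siNT, a ratio of summed counts of 115 with an exact counting interval of 38.9 to 558 (edgeR adjusted p 1.89e-09). A Charlie1a copy next to it, chosen after its values were seen as the leading locus of its subfamily, went from 0.0882 ± 0.0602 to 4.03 ± 0.576 CPM. A MER58B copy at chr16:55775777-55776099 in CES1P1, a carboxylesterase pseudogene, had 0 counts in DMSO siNT and 82 in 4OHT siNT, at least 23.4-fold higher (edgeR adjusted p 8.03e-06). A MER53 copy at chr6:132686461-132686518 in VNN1, a pantetheinase gene, had 0 and 64 counts, at least 18.2-fold higher (edgeR adjusted p 6.33e-05). A MER115 copy 7732 bp from TRIB1, a pseudokinase gene, had 1 count in DMSO siNT and 197 in 4OHT siNT, a ratio of 168 with an exact counting interval of 29.9 to 6688 (edgeR adjusted p 1.63e-08). Its sequence is not printed.

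Falls were largest in NREP, a gene named for neuronal regeneration that fibroblasts express, which itself fell by 3.20 on the log2 scale (edgeR SE 0.21, adjusted p 3.08e-10). Its Charlie2a copy at chr5:111724163-111725483 was at 1.16, 1.86, 2.62, 1.98 and 2.48 CPM in DMSO siNT, and at 0 to 0.131 CPM (median 0.0290) in 4OHT siNT. The log2 fold change was -5.31 (edgeR SE 0.43, adjusted p 4.39e-08). A further Charlie2a copy at chr5:111725802-111726651 and the MER102c copy printed above fell by 4.46 (edgeR SE 0.31, adjusted p 5.03e-09) and by 3.82 (edgeR SE 0.45, adjusted p 3.49e-06). These 3 loci also overlap STARD4-AS1, so the gene of origin is uncertain. Their siSMARCA4 libraries, at 0 to 0.118 CPM, stayed in the range of 4OHT siNT or below it.

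A MER102b copy in an intron of RPTOR, a subunit of the mTORC1 kinase complex, fell while the gene did not pass the test. At chr17:80829290-80829557 it was at 0.540, 0.723, 0.682, 0.641 and 0.712 CPM in DMSO siNT and at 0 to 0.179 CPM (median 0.0553) in 4OHT siNT, without overlap. The log2 fold change was -3.31 (edgeR SE 0.44, adjusted p 1.33e-05), against 0.01 for RPTOR (edgeR SE 0.12, adjusted p 0.945). Outside genes, a MER58B copy 1327 bp from the lysophosphatidic acid receptor gene LPAR1 fell by 3.42 on the log2 scale (edgeR SE 0.36, adjusted p 9.17e-07). The MER5B copy printed above, 568 bp from the annexin gene ANXA5, fell by 2.94 (edgeR SE 0.45, adjusted p 6.11e-05). A MER3 copy 100 bp from CIP2A, an inhibitor of the phosphatase PP2A, fell by 2.86 (edgeR SE 0.49, adjusted p 0.000191). In the 3' UTR of the phospholipase C gene PLCE1, a MER58B copy fell by 2.85 (edgeR SE 0.47, adjusted p 0.000122), and by 2.94 with the exonic share as a covariate (edgeR SE 0.45, adjusted p 4.14e-05). LPAR1, ANXA5, CIP2A and PLCE1 fell as well, by 2.15, 0.99, 2.40 and 1.87 on the log2 scale (edgeR adjusted p 2.34e-11, 3.50e-09, 2.16e-09 and 6.50e-07). Most of the loci named here and in NREP could enter the test through DMSO siNT alone. They were then picked as large falls without overlap, so neither their p-values nor the separation of libraries is separate support.

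Some genes with 3 or more called loci, picked after the values were seen, were compared with their loci. In WLS, which carries Wnt proteins to the cell surface, 6 of 6 tested loci rose, by 2.37 to 3.58 on the log2 scale, beside 2.74 for the gene (edgeR SE 0.12, adjusted p 2.14e-12). In ABLIM3, an actin-binding protein, 4 of 4 rose by 1.56 to 2.10 beside 0.75 (edgeR SE 0.08, adjusted p 4.84e-07). The extracellular crosslinking enzyme gene TGM2 and the secretory kinase gene FAM20C each had 3 of 3. In PDCD1LG2, the gene of the checkpoint ligand PD-L2, 3 of 4 tested loci fell, by 0.90 to 1.45, beside a fall of 1.87 for the gene (edgeR SE 0.14, adjusted p 2.17e-09). The loci of 1 gene share its transcripts and are not independent.

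Over all 415 intronic loci in tested genes, 301 moved in the direction of the gene with 4OHT. In 47 the gene was called the opposite way. Agreement was closer among called loci, which were selected for large changes. Of 133 called intronic loci in tested genes, 115 moved in the direction of the gene with 4OHT, and 107 lay in genes that were called the same way. In 10 the gene was called the opposite way. Of all genes tested, 27% were called higher and 27.4% lower with 4OHT. Across 415 intronic loci with a tested gene, the Spearman correlation between the log2 fold changes of locus and gene was 0.64, a description over loci that share genes and libraries. The locus minus gene difference had a median of 0.19 on the log2 scale over these 415 loci, and of 0.62 over the called ones, which were selected for large changes. Over exonic loci it was -0.25, and -0.27 over the called ones.

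**Figure D4:**
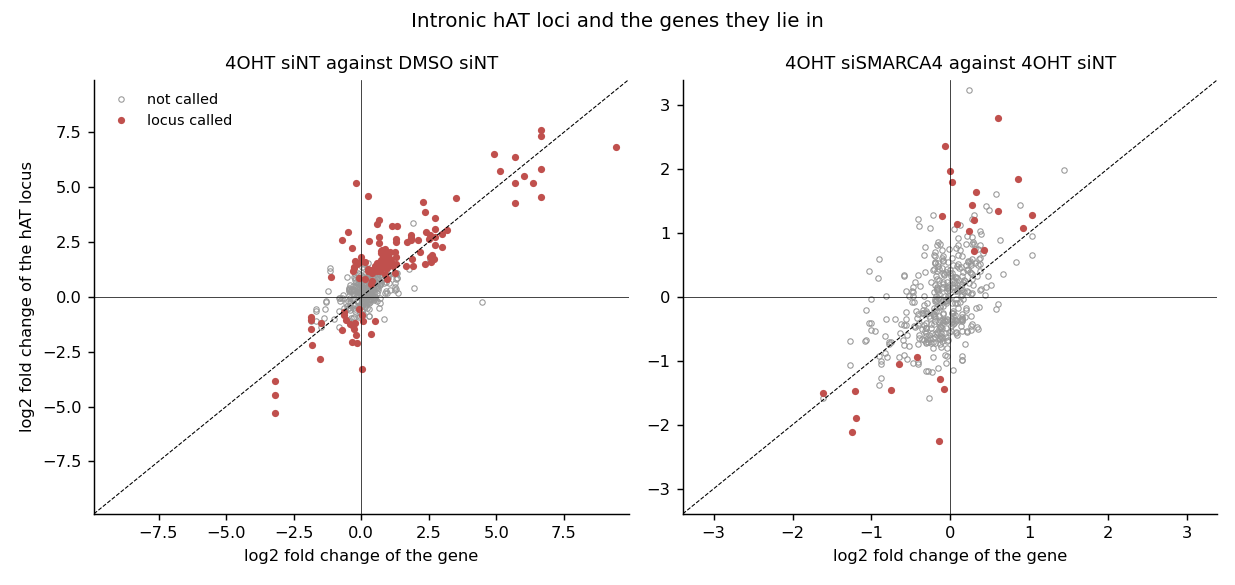
Log2 fold change of intronic hAT loci (y axis) against that of the gene they lie in (x axis), in 4OHT siNT against DMSO siNT (left) and 4OHT siSMARCA4 against 4OHT siNT (right). Red points are called loci, open points are not called, and the dashed line marks equal change. Of the red points, 115 of 133 on the left and 23 of 26 on the right lie on the same side of 0 as the gene.

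The question for siSMARCA4 against siNT, both in 4OHT, was how hAT RNA responds when SMARCA4 is depleted during senescence. Of the 144 hAT subfamilies, 18 were called higher and 0 lower by edgeR (43 with an unadjusted p under 0.05), or 12.5%, beside 19.4% called higher and 0.975% lower among all repeat subfamilies. DESeq2 called 28 higher and 0 lower, beside 23.6% and 1.17% among all. The difference between hAT and the other repeats was not tested. The median log2 fold change was 0.21 for hAT subfamilies, 0.25 for all repeat subfamilies and 0.32 for 93 Tc1/mariner subfamilies, of which 20 were called higher and 1 lower. The number of calls depended on the scale. Scaling taken from repeats alone centres repeats by construction. It moved the median repeat subfamily from 0.25 to -0.02 and the median gene from -0.02 to -0.29. On that scale, which sets hAT beside repeats at large, hAT had 0 subfamilies higher and 1 lower (21 with an unadjusted edgeR p under 0.05). The count was 30 without siSMARCA4 4-2VM, and 1 with the V or VM tag as a covariate.

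Libraries did not overlap in 6 of the 18, or 4.17% of hAT subfamilies, beside 10.8% called higher and 0.39% called lower without overlap among all repeat subfamilies. Zaphod2, a Tip100 subfamily, was at 0.559, 0.637, 0.330, 0.407 and 0.403 CPM in DMSO siNT, 0.329 to 0.471 CPM (median 0.387) in 4OHT siNT and 0.528 to 0.986 CPM (median 0.716) in siSMARCA4. Its log2 fold change was 0.91 (edgeR SE 0.20, adjusted p 0.00742). Zaphod, of the same family, rose by 0.59 from 1.91 ± 0.336 to 2.87 ± 0.363 CPM (edgeR SE 0.17, adjusted p 0.0219). The Zaphod call ended without 4OHT siNT 4-2VM (0.51, edgeR adjusted p 0.0551), without siSMARCA4 4-2V (0.52, edgeR adjusted p 0.0504) and without its locus with most counts (0.48, edgeR adjusted p 0.0809). Charlie1a rose by 0.47 from 14.4 ± 0.679 to 19.98 ± 2.43 CPM (edgeR SE 0.10, adjusted p 0.00510) and Charlie1 by 0.53 from 5.90 ± 0.808 to 8.54 ± 1.40 CPM (edgeR SE 0.14, adjusted p 0.0129). Charlie8 rose by 0.37 (edgeR SE 0.11, adjusted p 0.0223), and was at 0.42 (edgeR SE 0.18, adjusted p 0.101) without the loci that match transcripts of other genes and at 0.38 (edgeR SE 0.14, adjusted p 0.0585) without its locus with most counts. Charlie12 rose by 0.58 (edgeR SE 0.14, adjusted p 0.0110), and 98.2% of its counts lay on 1 locus in the 3' UTR of CYP3A5. With the exonic share as a covariate Charlie12 was at 0.61 (edgeR SE 0.15, adjusted p 0.00742). CYP3A5, the gene of a drug-metabolising enzyme, was at -0.76 (edgeR SE 0.38, adjusted p 0.159). The largest change of the 18, outside the naming rule because libraries overlapped, was in Charlie7a at 1.25 (edgeR SE 0.33, adjusted p 0.0136). Its siSMARCA4 libraries fell apart, with 9.82, 7.98, 9.92 and 6.88 CPM in 4 of them and 2.40 and 2.01 CPM in 2-3V and 4-2VM, of which the first lay inside and the second below the siNT range of 2.22 to 3.51 CPM. An intron of ITGB1, an integrin gene, held 41.1% of Charlie7a counts, on a locus that ranged from 0 to 7.27 CPM among siSMARCA4 libraries.

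Of 704 hAT loci, 21 rose and 12 fell with siSMARCA4, or 2.98% and 1.70%, beside 4.35% called higher and 1.8% called lower among all repeat loci. Libraries did not overlap in 15 and 5 of them, or 2.13% and 0.71% of hAT loci, beside 2.3% and 0.829% of all repeat loci. DESeq2 called 27 higher and 24 lower, beside 5.82% and 2.69% of all repeat loci. Scaling from repeats alone moved the median of all repeat loci from 0.14 to -0.05. The split of hAT loci was then 11 higher and 28 lower, so the balance between rises and falls depends on the scale. Median log2 fold changes were 0.02 for hAT loci and 0.14 for all repeat loci. In introns 16 of 423 loci rose and 10 fell, in exons 4 of 199 rose and 1 fell, and outside genes 1 of 82 rose and 1 fell. The count of 33 was 18, 21, 17 and 19 without the 4OHT siNT libraries 2-1VM, 4-1VM, 4-2VM and 4-3VM, and 13, 15, 14 and 17 without the siSMARCA4 libraries 2-1VM, 2-3V, 2-3VM and 4-2VM. With the exonic share as a covariate it was 66 (42 higher, 24 lower), which included the 33. Apart from DESeq2, the shares of all repeat loci under these alternatives are not given here. The counts are therefore no result about hAT in particular.

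An even rise was found in GAPVD1, a regulator of endosome traffic, whose intron holds a Charlie1a copy at chr9:125334051-125334616. It was at 0.149, 0.206, 0.161, 0.0827 and 0.374 CPM in DMSO siNT, 0.0433 to 0.153 CPM (median 0.0754) in 4OHT siNT and 0.423 to 0.495 CPM (median 0.481) in siSMARCA4. Every siSMARCA4 library lay above every other library. The log2 fold change was 2.36 (edgeR SE 0.33, adjusted p 0.00154), whereas GAPVD1 was at -0.06 (edgeR SE 0.07, adjusted p 0.574). The MER20 copy in ATP13A3, a polyamine transporter gene, was at 0.0559, 0.165, 0.0538, 0.0413 and 0.0891 CPM in DMSO siNT, 0 to 0.112 CPM (median 0.0355) in 4OHT siNT and 0.237 to 0.437 CPM (median 0.293) in siSMARCA4. That was a log2 fold change of 2.79 (edgeR SE 0.48, adjusted p 0.00499), beside 0.60 for the gene (edgeR SE 0.14, adjusted p 0.00590). With few counts elsewhere, these loci and several of the rises named below could enter the test through their siSMARCA4 libraries alone. All were picked as large rises without overlap, so neither their p-values nor the separation of libraries is separate support.

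Rises in genes that rose too were found in PTGES and ABCA1. In the 3' UTR of PTGES, which makes prostaglandin E2, a MER5B copy at chr9:129739149-129739254 rose by 2.79 (edgeR SE 0.63, adjusted p 0.0183) beside 2.16 for the gene (edgeR SE 0.29, adjusted p 6.60e-05). It had 13 counts in 4OHT siNT and 100 in siSMARCA4. It was at 0 CPM in 2 of 6 siNT libraries, 2-2VM and 2-3VM, and in 2 of 5 DMSO siNT libraries, 2-2V and 4-2VM. With the exonic share as a covariate the rise was 2.66 (edgeR SE 0.54, adjusted p 0.00467). In ABCA1, a cholesterol exporter, the Charlie15a copy printed above was at 0.0186, 0.0413, 0, 0.0207 and 0.0178 CPM in DMSO siNT, 0.0173 to 0.131 CPM (median 0.0931) in 4OHT siNT and 0.141 to 0.422 CPM (median 0.353) in siSMARCA4. It rose by 1.85 with siSMARCA4 (edgeR SE 0.41, adjusted p 0.0170) and ABCA1 by 0.86 (edgeR SE 0.15, adjusted p 0.000666).

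Further rises lay in introns of other genes. MER33 copies in KIAA0232 and in the crystallin-like gene CRYL1 rose by 1.97 (edgeR SE 0.43, adjusted p 0.0160) and 1.64 (edgeR SE 0.40, adjusted p 0.0240). A MER3 copy in PAFAH1B1, the LIS1 regulator of dynein, rose by 1.79 (edgeR SE 0.35, adjusted p 0.00975). A Charlie2b copy in PDCD1LG2, which also overlaps ENSG00000286162, rose by 1.44 (edgeR SE 0.36, adjusted p 0.0273) after a fall of 1.45 with 4OHT (edgeR SE 0.38, adjusted p 0.00663). KIAA0232, PAFAH1B1 and PDCD1LG2 were themselves at -0.01, 0.03 and 0.28 (edgeR adjusted p 0.975, 0.784 and 0.149), and CRYL1 rose by 0.32 (edgeR adjusted p 0.0374). Each of these loci had 90 to 163 counts in siSMARCA4 and 22 to 55 in 4OHT siNT. Leaving out 1 library ended the call for PDCD1LG2 (4OHT siNT 4-1VM, 4-2VM or 4-3VM, siSMARCA4 2-1VM or 2-3V; 1.27 to 1.36, edgeR adjusted p 0.0571 to 0.0750). It also did so for CRYL1 (4OHT siNT 2-1VM, 4-2VM or 4-3VM, siSMARCA4 2-1VM or 2-3V; 1.52 to 1.58, edgeR adjusted p 0.0509 to 0.0607).

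Falls with siSMARCA4 were led by a MER63A copy in CAPN2, a calpain protease gene, and a MER20 copy in SSC5D, a scavenger receptor gene. The MER63A copy was at 0.317, 0.372, 0.143, 0.145 and 0 CPM in DMSO siNT, 0.242 to 0.475 CPM (median 0.375) in 4OHT siNT and 0.0195 to 0.131 CPM (median 0.0681) in siSMARCA4. It fell by 2.26 (edgeR SE 0.53, adjusted p 0.0222), while CAPN2 was at -0.15 (edgeR SE 0.07, adjusted p 0.131). The MER20 copy fell by 2.12 (edgeR SE 0.54, adjusted p 0.0290), with SSC5D falling by 1.25 (edgeR SE 0.23, adjusted p 0.000927). Its call ended without 4OHT siNT 4-1VM, siSMARCA4 2-1VM or siSMARCA4 4-2VM (-2.09, -1.87 and -1.98, edgeR adjusted p 0.0524, 0.0514 and 0.0592). The CAPN2 and SSC5D copies entered the test in large part through 4OHT siNT. Loci named as falls with siSMARCA4 were picked as large falls without overlap, so their p-values are not separate support.

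A BLACKJACK copy of 750 bp at chr9:116000519-116001268, 11093 bp from the noncoding RNA gene ENSG00000228707, moved in opposite directions in the 2 comparisons. It was at 0.261, 0.124, 0.108, 0.165 and 0.0891 CPM in DMSO siNT, 0.583 to 1.34 CPM (median 0.951) in 4OHT siNT and 0.0586 to 0.473 CPM (median 0.265) in siSMARCA4. 4OHT siNT lay above both other groups without overlap. The log2 fold changes were 2.63 with 4OHT (edgeR SE 0.42, adjusted p 8.48e-05) and -1.80 with siSMARCA4 (edgeR SE 0.36, adjusted p 0.0108). A MER20 copy in ARPC5L, a subunit of the Arp2/3 complex, rose by 1.26 (edgeR SE 0.31, adjusted p 0.00434) and fell by 1.28 (edgeR SE 0.29, adjusted p 0.0180). In CDKN1A, the gene of the cell cycle inhibitor p21, a MER3 copy at chr6:36685320-36685501 fell by 0.94 with siSMARCA4, from 1.57 ± 0.0788 to 0.817 ± 0.304 CPM (edgeR SE 0.23, adjusted p 0.0231), and CDKN1A fell by 0.42 (edgeR SE 0.07, adjusted p 0.000448). With 4OHT this copy was at 0.64 (edgeR SE 0.24, adjusted p 0.0510), and CDKN1A rose by 1.23 (edgeR SE 0.08, adjusted p 1.65e-10). The copy passed without DMSO siNT 2-1V (0.75, edgeR adjusted p 0.0379) or 4OHT siNT 4-2VM (0.69, edgeR adjusted p 0.0476). It also passed with the exonic share as a covariate (0.65, edgeR SE 0.23, adjusted p 0.0383). In all, 13 hAT loci were called in both comparisons, and the matching share of all repeat loci is not given here. The comparisons share the 4OHT siNT libraries, so their values are only set side by side.

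Among the 26 called intronic loci, 23 moved in the direction of their gene and 16 lay in genes called the same way, with 0 in genes called the opposite way by edgeR. Of all genes tested, 10.4% were called higher and 13.8% lower with siSMARCA4. Over all 415 intronic loci with a tested gene, 280 moved in the direction of the gene. In 18 of the 415 the gene was called the opposite way, and the Spearman correlation was 0.51. The plot of named loci by library shows the single values behind these comparisons.

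**Figure D5:**
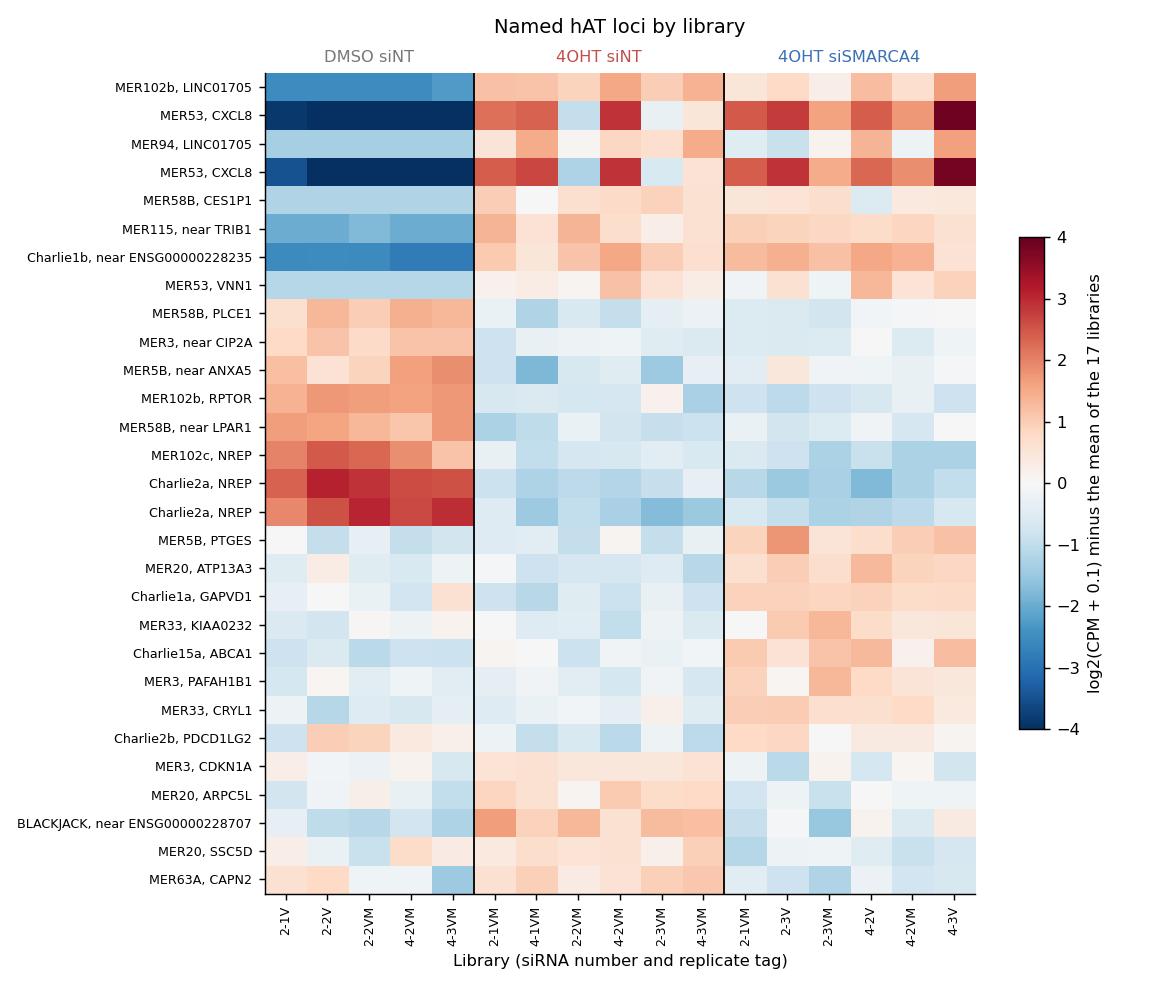
Named hAT loci (rows, with their gene or nearest gene) in the 17 libraries (columns, by group, siRNA number and replicate tag), as log2(CPM + 0.1) minus the mean of the row, with colours clipped at 4. The first 8 rows are near 0 CPM in DMSO siNT, the next 8 are high there, and the lower rows separate 4OHT siSMARCA4 from 4OHT siNT.

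Host genes derived from hAT transposases were followed as a list of 14, of which 13 were tested and SCAND3 (ZBED9) had too few counts (118). With 4OHT, 3 rose and 4 fell, beside 27% and 27.4% of all genes. ZBED4 rose by 0.80 from 26.3 ± 2.67 to 45.8 ± 3.86 CPM (edgeR SE 0.09, adjusted p 4.45e-07), ZNF862 by 0.45 (edgeR SE 0.09, adjusted p 0.000367) and ZBED1 by 0.17 (edgeR SE 0.07, adjusted p 0.0440). The largest fall was in ZBED3, known as an axin-binding protein, from 2.49 ± 1.64 to 0.342 ± 0.106 CPM (-2.87 in log2 units by edgeR, SE 0.35, adjusted p 1.04e-06). ZBED2 fell by 1.80 (edgeR SE 0.38, adjusted p 0.000564), GTF2IRD2 by 1.03 (edgeR SE 0.16, adjusted p 1.68e-05) and GTF2IRD2B by 0.79 (edgeR SE 0.12, adjusted p 1.60e-05). The last pair are near-identical copies, so reads could be split between them. With siSMARCA4, 0 rose and 1 fell by edgeR (5 with an unadjusted p under 0.05), beside 10.4% and 13.8% of all genes. ZNF862 fell by 0.45 from 13.2 ± 1.26 to 9.64 ± 0.765 CPM (edgeR SE 0.09, adjusted p 0.00121), close to the DMSO siNT level of 9.66 ± 1.08 CPM. Every siSMARCA4 library lay below every 4OHT siNT library.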

How the data were processed

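RNA sequencing of 17 libraries was analysed from 1 table per library. Before they deposited these expected counts, whole-number estimates of read pairs per gene and per repeat locus without normalisation, the authors trimmed reads with Cutadapt 4.7, aligned them to GRCh38 with HISAT2 2.2.1, and counted with TElocal in reverse-stranded mode, which shares multimapping pairs by likelihood. A locus sharing sequence with a gene elsewhere can therefore take part of its reads. Locus names carry no strand.

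Here, locus counts were summed per subfamily. Genes joined with 1026 subfamilies, and genes joined with 13026 loci (10 or more counts in all), were kept by filterByExpr (minimum count 10, minimum total 15), scaled by TMM and fitted over all libraries with 1 term per group by the quasi-likelihood test of edgeR 4.0.16 (R 4.3.3). Benjamini-Hochberg adjustment ran over all subfamilies, all loci or all genes, and a call is an adjusted p under 0.05. The edgeR SE was derived from that test, as the absolute log2 fold change divided by the square root of the F statistic. CPM beside fold changes are TMM-scaled within each fit, and totals are per library total. Totals were compared by exact 2-sided permutation of the difference in means. Exon, intron and neighbouring genes came from GENCODE 44, and distances from bedtools 2.31.1. Loci were matched to transcripts with BLAST 2.17.0. Intervals and floors cover counting error only. DESeq2 1.42.0 and the other alternatives are in the closing section.

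Named subfamilies were the 5 with most counts and, per comparison and direction, up to 5 called without overlap between libraries. Named loci were the 5 with most counts, up to 8 by the same criteria, and any locus holding most of a named subfamily. Members and lists were chosen with earlier results of these data known. Labels do not say whether libraries are separate cultures, so p-values measure the spread between these libraries, which may be technical.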

Additional observations from a re-analysis of the deposited data

Results flagged for a closer look

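In groups of 5 or 6 libraries, a value was singled out where 1 library lay far from the others by Dixon's test, which chance does in about 1 of 20 groups. It did so in 17 of 204 groups (8.33%), and 7 of the 17 were in 4OHT siSMARCA4 4-3V, the siSMARCA4 library with the highest exonic share. That library had a hAT share of repeat counts of 7.05% (others 5.53% to 6.01%), hAT-Blackjack at 113 CPM (others 33.0 to 60.3), MER53 at 95.1 CPM (others 22.1 to 48.9) and its CXCL8 locus at 45.3 CPM (others at most 21.2). It also had Charlie8 at 10.4 CPM (others at most 9.15), Charlie7 at 26.8 CPM (others 35.0 to 37.0) and the Charlie7 locus in YBX1P1 at 17.7 CPM (others 28.4 to 30.7). The part of the exonic share in these values was not tested.

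Other single libraries stood apart. DMSO siNT 2-2V had 579.6 CPM on intronic hAT loci (others 327 to 395), and siSMARCA4 4-2V had 58.9% of hAT counts in introns (others 47.4% to 51.4%). In 4OHT siNT, 4-2VM had the VNN1 copy of MER53 at 0.401 CPM, 2-3VM had the RPTOR copy of MER102b at 0.179 CPM, and 4-3VM had a Charlie2a copy in NREP at 0.209 CPM and the LINC01705 copy of MER97d at 4.16 CPM. In siSMARCA4, 4-2V had the CES1P1 copy of MER58B at 0.0582 CPM and 2-3V had the MER5B copy near ANXA5 at 0.366 CPM. Single counts gave 0.0178 CPM for MER102b in LINC01705 in DMSO siNT 4-3VM and 0.0179 CPM for MER115 near TRIB1 in DMSO siNT 2-2VM, where the other libraries of the group had 0.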

How the results depend on the processing

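Of the values computed under alternatives for the comparisons, 293 were taken as the same, 29 counts moved by over 1.5 times, 18 became weaker, 6 stronger and 1 reversed. Counts within 1.5 times were taken as the same. So were values that passed in neither setting, even where their sign changed. Counts of calls in this paragraph are for hAT alone, without the share of all repeats. For siSMARCA4 against 4OHT siNT, the count of 18 subfamilies, all higher, became 1 with scaling from repeats alone, and that 1 was lower. The count was 28 with the 2 groups alone, 1 with V or VM as a covariate, 5 in VM libraries, and 0 and 7 in siRNA number 2 and 4 libraries. It was 0 with sparse repeats as a covariate (24 with an unadjusted edgeR p under 0.05) and 28 by DESeq2. The 33 loci became 6 and 0 in number 2 and 4 libraries, 0 with sparse repeats as a covariate (94 with an unadjusted edgeR p under 0.05), which separated the 2 groups, 51 (27 higher, 24 lower) by DESeq2 and, chosen after seeing the data, 66 with the exonic share as a covariate. The edgeR counts of 0 had 23 subfamilies, and 123 loci, with an unadjusted p under 0.05 in number 2 and number 4 libraries. For 4OHT siNT against DMSO siNT, the 29 subfamilies became 14 in number 2 libraries and 14 without the leading locus of each, and the 201 loci became 415 with no filter on low counts. With the label number and tag as a replicate block, counts were 0 subfamilies (13 with an unadjusted edgeR p under 0.05) and 0 loci (99) for siSMARCA4, and 10 subfamilies and 89 loci for 4OHT. Same-label libraries did not deviate together (correlations -0.41 to 0.33), so the labels were not taken as pairing. Libraries of 4OHT siNT and DMSO siNT did deviate together over genes by exonic share. The 4OHT siNT libraries 2-2VM, 2-3VM and 4-3VM, with low shares, correlated with DMSO siNT 4-2VM and 4-3VM at 0.22 to 0.58. The 4OHT siNT libraries 2-1VM, 4-1VM and 4-2VM were at -0.52 to -0.26 with the same DMSO siNT libraries.

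MER97d with 4OHT reversed to -0.55 without its leading locus, Charlie8 to 0.040 and the exonic difference to 6.56 CPM without loci matching other transcripts. The exonic difference was -18.5 CPM without the top 5 loci, -87.1 in VM, -165.0 in number 2 and -59.7 in number 4 libraries. Outside genes, siSMARCA4 differed by 24.4, 26.2 and 24.0 CPM from 4OHT siNT and by 25.1, 30.3 and 19.4 CPM from DMSO siNT in VM, number 2 and number 4 libraries. None of these passed. The number 2 and number 4 libraries, and the VM libraries against DMSO siNT, were too few to pass. Apart from the construction of each alternative, the cause was not tested.

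Leaving out 1 library at a time gave 12 to 30 subfamilies and 13 to 33 loci for siSMARCA4 against 4OHT siNT, and 22 to 32 and 177 to 214 for 4OHT siNT against DMSO siNT. For siSMARCA4 against 4OHT siNT it gave differences of 82.3 to 161.9 CPM in all, 40.8 to 88.8 in introns, 21.8 to 28.8 outside genes and -0.51 to -0.21 points in share. For 4OHT siNT against DMSO siNT it gave -131.7 to -99.2 CPM in exons and 35.1 to 98.3 in introns, and for siSMARCA4 against DMSO siNT -99.6 to -60.0 in exons, 97.4 to 163.4 in introns and 21.6 to 28.6 outside genes. Most loci had few counts, so differences at the 9622 or fewer loci with 10 or more counts were all that this depth could address.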

Other observations

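The contrast of siSMARCA4 with siNT was compared between siRNA numbers 2 and 4, an alternative chosen after seeing the data. The difference passed the edgeR test in 0 of 144 hAT subfamilies and 0 of 704 hAT loci, with an unadjusted p under 0.05 in 4 and 50. Among all repeats it passed in 0 of 1026 subfamilies and 1 of 13026 loci. The hAT motif stood at both ends in 17 of the 704 loci with enough counts to be tested (2.41%) and in 6723 of the 405742 others (1.66%), part of which also had counts.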
